A study of Mus musculus with 12 samples.

Results

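The genomic regions described here gained both Mediator subunits measured, MED1 and MED24, after 2 h of RAF activation in mouse embryonic stem cells. Peaks from 8 ChIP-seq libraries were merged wherever they shared at least 1 bp, which gave 78166 regions. A region counted as gained when it held a peak in all 4 libraries made at 2 h and in none of the 4 made at 0 h, and 7065 regions (9.04%) met this rule. They were thus selected on the peak calls themselves, so the presence of peaks at 2 h and their absence at 0 h are a description and not a result. A region without a call can still hold signal below the calling threshold. The reverse pattern, called lost here, held for 1976 regions (2.53%), and 17027 regions (21.8%) held a peak in all 8 libraries and are called retained.

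All libraries came from the E14tg2a embryonic stem cell line (129SV) with a stably integrated cRAF-ErT2 cassette, in 2 clones named a and b. The 2 h groups received 250 nM 4-hydroxytamoxifen (4OHT), and the 0 h groups were untreated. Before that, cells of every group had been moved 24 h earlier out of medium with serum, LIF and 2 µM Chir99021, a GSK3 inhibitor, into medium with serum, LIF and 250 nM PD173074, an FGF receptor inhibitor. Each of the 4 groups (MED1 at 2 h, MED24 at 2 h, MED1 at 0 h, MED24 at 0 h) held 1 library per clone. The sample titles name MED24 as the precipitated protein. Peak names in the MED24 lists carry FLAG and a folder name, EP300, that differs from the labels, which were followed. Neither a vehicle-treated library nor cells without the cassette were analysed here, so RAF activation, 4OHT itself and time in culture cannot be told apart. The lists held 42445 to 48931 peaks at 2 h and 37483 to 41689 peaks at 0 h, and they give no read numbers, so the sequencing depth is unknown. All 12 embryonic stem cell marker genes examined held a peak in each of the 8 libraries. Markers of other cell types held peaks too: 7 of 7 trophectoderm genes in each 2 h library and 6 of 7 in each 0 h library, 9 to 10 of 12 fibroblast genes at 2 h and 5 to 8 at 0 h, and 6 to 9 of 12 primitive endoderm genes at 2 h and 7 to 9 at 0 h. Occupancy of these genes therefore does not set the cell types apart, and its part in the gained set was not tested.

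Mediator is a large complex that carries signals from transcription factors on enhancers to RNA polymerase II at promoters, and its occupancy is widely used to find active enhancers. ErT2 fusions of RAF are switched on by 4OHT and drive MEK and ERK. Active ERK induces immediate early genes, among them members of the FOS and JUN families that form the AP-1 transcription factor, and genes that feed back on the pathway, such as dual-specificity phosphatases and Sprouty proteins. In mouse embryonic stem cells, ERK signalling is known for moving cells away from naive pluripotency.

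Sequence could be read only where gained regions overlapped a RefSeq promoter window of GRCm38.p6 (the assembly of mm10). These windows run from 250 bases before to 50 after an annotated transcription start. A region may overlap only part of its window, so a match can lie outside the region. Only 132 of the 7065 gained regions overlapped such a window, and the letters of the other gained regions were not read. The strongest of the promoters read are printed to show which letters they hold, 5′ to 3′ along the gene. Every AP-1 match (TGANTCA, the same on both strands) and every CRE match (TGACGTCA) is in capitals and all else in lower case. They belong to Dnah1, an axonemal dynein, at chr14:31323847-31324146 (- strand); Gsn, the actin-severing protein gelsolin, at chr2:35266494-35266793 (+ strand); and Sun1, an inner nuclear membrane protein, at chr5:139214908-139215207 (+ strand). The next are Emp3, an epithelial membrane protein, at chr7:45920800-45921099 (- strand), and Dclk1, a doublecortin-like kinase, at chr3:55461478-55461777 (+ strand). The remaining ones are Krtdap, a keratinocyte differentiation gene, at chr7:30787655-30787954 (+ strand), Trpv3, a cation channel of skin, at chr11:73267270-73267569 (+ strand), and Serpinb8, a serine protease inhibitor, at chr1:107589756-107590055 (+ strand).
Dnah1: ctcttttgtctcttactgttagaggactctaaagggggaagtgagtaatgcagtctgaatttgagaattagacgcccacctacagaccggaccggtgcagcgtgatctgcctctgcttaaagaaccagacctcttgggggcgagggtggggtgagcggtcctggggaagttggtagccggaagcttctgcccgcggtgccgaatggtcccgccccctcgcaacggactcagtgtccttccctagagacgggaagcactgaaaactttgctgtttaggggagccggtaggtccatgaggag
Gsn: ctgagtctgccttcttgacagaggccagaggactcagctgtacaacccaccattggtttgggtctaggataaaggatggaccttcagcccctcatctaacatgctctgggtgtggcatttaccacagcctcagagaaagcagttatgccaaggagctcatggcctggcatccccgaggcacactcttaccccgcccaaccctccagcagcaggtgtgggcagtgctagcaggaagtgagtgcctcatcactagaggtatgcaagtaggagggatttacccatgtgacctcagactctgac
Sun1: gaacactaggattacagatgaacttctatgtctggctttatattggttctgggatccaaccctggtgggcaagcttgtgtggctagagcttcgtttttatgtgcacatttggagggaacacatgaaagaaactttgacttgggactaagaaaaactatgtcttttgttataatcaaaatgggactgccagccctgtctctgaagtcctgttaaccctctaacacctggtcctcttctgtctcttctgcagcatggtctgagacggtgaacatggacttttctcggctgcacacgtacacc
Emp3: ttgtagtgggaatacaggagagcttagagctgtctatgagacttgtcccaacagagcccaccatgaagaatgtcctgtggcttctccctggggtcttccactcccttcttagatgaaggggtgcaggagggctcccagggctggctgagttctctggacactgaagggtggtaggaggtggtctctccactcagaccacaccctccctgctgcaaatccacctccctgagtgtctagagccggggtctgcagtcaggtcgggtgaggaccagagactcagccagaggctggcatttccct
Dclk1: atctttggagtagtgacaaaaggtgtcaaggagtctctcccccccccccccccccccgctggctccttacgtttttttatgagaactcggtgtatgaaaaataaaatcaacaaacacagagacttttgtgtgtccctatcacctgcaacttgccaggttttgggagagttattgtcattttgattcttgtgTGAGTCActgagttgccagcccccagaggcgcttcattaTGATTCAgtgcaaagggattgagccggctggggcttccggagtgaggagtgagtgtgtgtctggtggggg
Krtdap: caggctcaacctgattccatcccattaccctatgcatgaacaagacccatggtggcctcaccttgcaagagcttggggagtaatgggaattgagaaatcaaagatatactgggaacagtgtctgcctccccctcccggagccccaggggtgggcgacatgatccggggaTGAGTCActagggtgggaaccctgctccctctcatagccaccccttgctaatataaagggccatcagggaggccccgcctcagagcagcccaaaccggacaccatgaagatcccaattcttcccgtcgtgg
Trpv3: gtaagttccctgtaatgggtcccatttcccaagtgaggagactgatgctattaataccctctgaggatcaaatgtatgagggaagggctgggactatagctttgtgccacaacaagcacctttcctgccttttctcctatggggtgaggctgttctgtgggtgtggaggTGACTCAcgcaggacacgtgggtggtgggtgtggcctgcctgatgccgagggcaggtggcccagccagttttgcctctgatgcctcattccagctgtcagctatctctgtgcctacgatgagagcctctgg
Serpinb8: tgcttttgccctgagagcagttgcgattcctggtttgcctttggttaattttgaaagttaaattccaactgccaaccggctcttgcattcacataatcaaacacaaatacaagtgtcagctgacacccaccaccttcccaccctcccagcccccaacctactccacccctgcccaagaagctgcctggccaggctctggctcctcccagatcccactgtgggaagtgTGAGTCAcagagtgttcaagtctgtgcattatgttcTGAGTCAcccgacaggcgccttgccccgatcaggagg

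AP-1 letters were present in 4 of these 8 windows. Dclk1 held TGAGTCA from 59 bases before its start and TGATTCA from 20 bases before it. Serpinb8 held TGAGTCA at 2 places, from 23 bases before and from 13 bases after its start. Krtdap and Trpv3 each held 1 match beginning 81 bases before the start. No CRE match was found in any of the 8. The 4 windows without AP-1 letters belonged to the regions of highest rank in the set, so within these 8 the letters did not follow peak rank.

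Over all 142 promoter windows that a gained region overlapped (132 regions, 136 genes), 46 held AP-1 letters, or 32.4%. The share was 10% of the 30 windows at lost regions, 3.83% of the 8727 windows at retained regions and 6.99% of all 21262 windows. Of the 12 motifs searched on both strands, AP-1 was the one with the largest excess over all windows. ETS letters (CCGGAAG), bound by a factor family that ERK phosphorylates, were in 7.04% of windows at gained regions against 11.6% of all windows and 22.5% at retained regions. The KLF box (GGGCGGGG) was in 20.4% against 23.6% of all windows, NFY letters (CCAAT) in 31.0% against 38.2%, TEAD letters (GGAATG) in 17 of 142 windows against 13.6% of all, and the E-box (CACGTG) in 7.75% against 7.84%. GATA letters (AGATAA) were in 9.15% of windows at gained regions against 9.65% of all. The CRE was in 0.704% against 2.23%, the POU octamer (ATGCAAAT) in 1.41% against 1.66% and the STAT site (TTCCNGGAA) in 0.704% against 1.17%. The ESRRB site (TCAAGGTCA) and the SRF core (CCATATTAG) had no match at gained regions, against 0.334% and 0.141% of all windows. A match is a string of letters and does not show that a factor was bound.

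**Figure D1:**
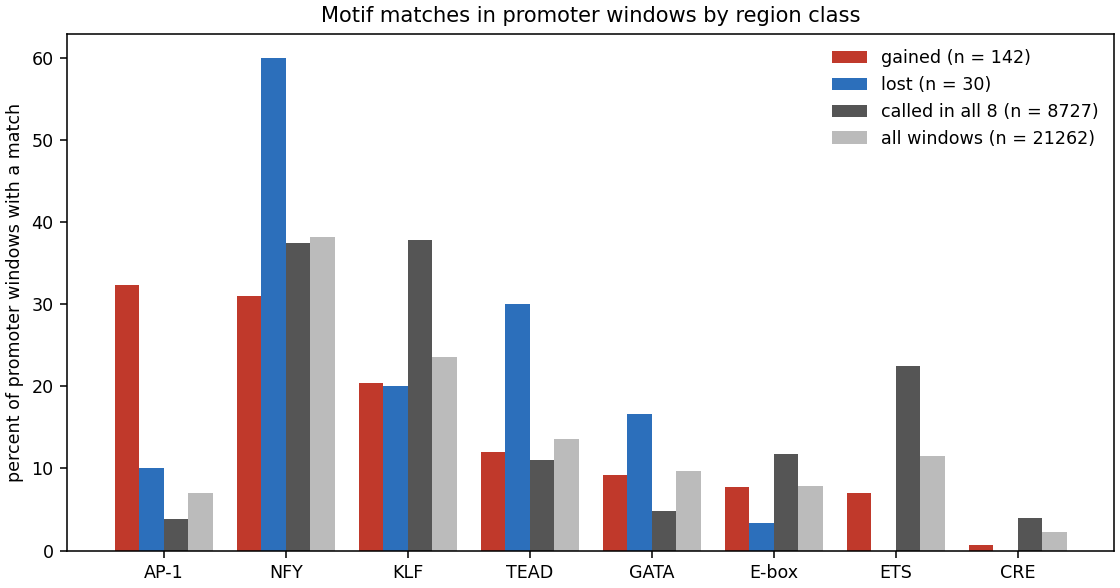
Percent of RefSeq promoter windows with at least 1 match to each of 8 motifs (vertical axis), for windows at gained regions (red), lost regions (blue), regions called in all 8 libraries (dark grey) and all windows (light grey). AP-1 stands at 32.4% in gained windows against 6.99% of all windows, while the other motifs in gained windows lie below their share in all windows.

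Base composition differed between the classes and touches this comparison. Windows at gained regions had a median of 11.5 CpG dinucleotides, those at lost regions 8, those at retained regions 24 and all windows 13. Among windows with fewer CpG than that overall median, AP-1 letters were in 41.1% of 73 at gained regions, against 7.91% of 1011 at retained regions and 10.6% of all. Among windows at or above it the shares were 23.2% of 69 at gained regions, 3.29% of 7716 at retained regions and 3.55% of all. The excess was thus present on both sides of the median. It rested on matches with G or C as the middle base, found in 30.3% of windows at gained regions and 4.66% of all, whereas matches with A or T there were in 3.52% and 2.47%.

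AP-1 letters also varied among the 132 gained regions that overlapped a promoter window. Of the 66 with the higher mean rank at 2 h, 34 had them in the window (51.5%), against 10 of the 66 with the lower rank (15.2%). Matches lay close to the point of highest MED1 signal. For the 44 gained regions with AP-1 letters in the window, the nearest match was a median of 38.8 bp from the MED1 summit, averaged over the clones. Of these 44, 63.6% had it within 50 bp. At gained regions ETS matches were a median of 69 bp away (9 regions, 22.2% within 50 bp). NFY matches were a median of 168 bp away (40 regions) and KLF matches 104 bp (29 regions). AP-1 matches at retained regions were a median of 140 bp from the summit (306 regions, 21.6% within 50 bp), and these regions were wider.

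Promoters just outside the rule were compared in the same way. Where a region was called in exactly 3 of the 2 h libraries and in none at 0 h, 22.2% of 90 windows held AP-1 letters. Regions called in 2 or in 1 of the 2 h libraries and in none at 0 h had them in 8.72% of 149 and 9.42% of 308 windows. Regions called in all 4 libraries at 2 h and in exactly 1 at 0 h had them in 9.42% of 138 windows. The share fell further with more 0 h calls, to 7.35% with 2 and 3.73% with 3. With the rule applied to 1 clone alone the share was 21.8% of 321 windows for clone a and 17.5% of 434 for clone b.

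The gained regions were of middle to high rank at 2 h. Each region was given, in each library, the percentile of its strongest peak within that library's list, by the authors' −log10 p for MED1 and score for MED24. Gained regions had median percentiles of 63.7 and 66.8 in the MED1 libraries of clones a and b, and of 57.7 and 64.9 in the MED24 libraries. Retained regions stood somewhat higher in the same 4 libraries, at 70.5, 72.6, 69.7 and 73.3. The fold enrichment that the authors' peak caller gave for MED1 had medians of 6.99 and 7.07 in the clones and reached 77.0 and 87.0. In all 4 lists at once, 525 gained regions (7.43%) were among the top 10 percent of peaks and 43 among the top 1 percent, whereas 796 lay below the median of every list. Across the 7065 regions the ranks in different libraries were related, with Spearman's rho of 0.82 between the clones for either protein and 0.70 to 0.75 between proteins. This is a description across regions that share libraries and a selection rule.

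**Figure D2:**
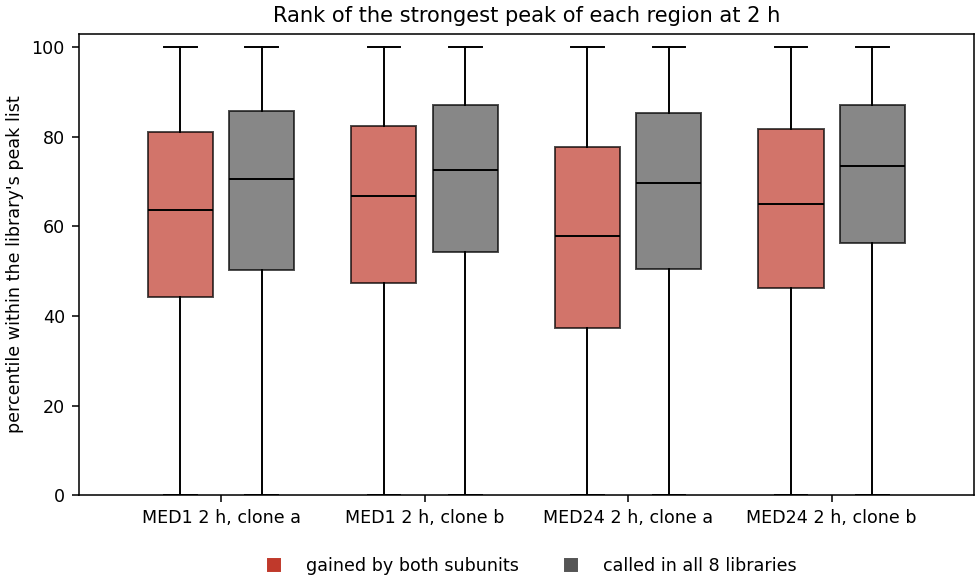
Percentile of the strongest peak of each region within its library's peak list (vertical axis) for the 4 libraries at 2 h, with gained regions (red) left of retained regions (grey); boxes span the quartiles with the median as a line, and whiskers reach the lowest and highest value. The medians of gained regions run from 57.7 to 66.8 and those of retained regions from 69.7 to 73.3.

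The most highly ranked gained regions lay near genes of varied function. The first, of 5085 bp at chr17:65959027-65964111, began 1.59 kb from Ankrd12, which encodes an ankyrin repeat protein, and had percentiles of 99.99, 99.99, 99.95 and 99.91 in MED1 clones a and b and MED24 clones a and b. A region inside Nell2, a gene for a secreted neural protein, at chr15:95275468-95277448, was the top peak of both MED1 lists, with fold enrichments of 77.0 and 87.0. Regions 23.8 kb from Tbk1, a kinase of innate immunity, and 37.2 kb from Nfat5, a factor of the osmotic stress response, had MED1 folds of 55.5 and 39.5, and of 35.6 and 39.9. Others stood 7.36 kb from Brpf3, a chromatin reader, 94.7 kb from Sgcz, a sarcoglycan, and inside Ltbp1, which binds latent TGF-beta. Another 2 of the 10 most highly ranked, at chr18:83894678-83896831 and chr2:147743908-147745702, had no protein-coding gene within 100 kb. At the other end, the lowest mean percentiles were 8.15 near Tmem245, 6.18 near Tnfrsf21 and 4.05 inside Armh3, with MED1 folds of 2.62 to 4.04.

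The gained regions had a median width of 511 bp (quartiles 414 and 665), against 535 bp for lost and 1094 bp for retained regions, and together they covered 4.12 Mb. Regions called in fewer 2 h libraries and none at 0 h had smaller medians, of 238 bp with 1 library, 322 bp with 2 and 368 bp with 3. A region spans all peaks merged into it, so more libraries with a peak can only widen it. This touches the comparison with retained regions too. Peaks sat at nearly the same place in each clone, with a median of 29 bp between the MED1 summits of clones a and b and 91.8% within 100 bp, against 43 bp and 75.9% in retained regions. Retained regions were wider, and 24.7% of them held over 1 peak in a 2 h library, against 3.48% of gained regions. The distances of the 2 classes are therefore not directly comparable. MED1 and MED24 peak centres were a median of 32 bp apart for clone a and 34 bp for clone b. Among the widest gained regions were 5937 bp inside Spry4, an inhibitor of receptor tyrosine kinase signalling, 5097 bp inside Efr3b, the 5085 bp next to Ankrd12 and 4669 bp at Phlda1. Width and rank differed among them, since the Spry4 region had percentiles of only 63.8, 54.2, 33.0 and 18.7 and the Efr3b region had 99.6 or more in each library.

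The grid of calls sets the gained regions among all others. Regions seen in 1 library alone were the most numerous after the retained ones, with 10312 in a single 2 h library and 9936 in a single 0 h library. Gained regions outnumbered lost ones by 1.84 on the log2 scale. With each list held to its 20000 highest ranked peaks, 3893 regions were gained and 2126 lost, a log2 ratio of 0.87, and with 10000 peaks a list it was 0.87 as well. With only peaks of a score of at least 100 it was 2.00. The 2 h lists held more peaks, and the part of this in the ratio was not tested. Just outside the rule were 1280 regions called in all 4 libraries at 2 h and in 1 at 0 h, where the lone 0 h peak had a median percentile between 18.2 and 20.7, and 2855 regions called in 3 libraries at 2 h and none at 0 h. Those with a lone 0 h peak had median percentiles of 55.3 to 61.7 at 2 h, near those of gained regions, and the second kind had 25.8 to 36.0. MED24 of clone a was the missing library in 1178 of the second kind, against 441 to 751 for the other 3.

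**Figure D3:**
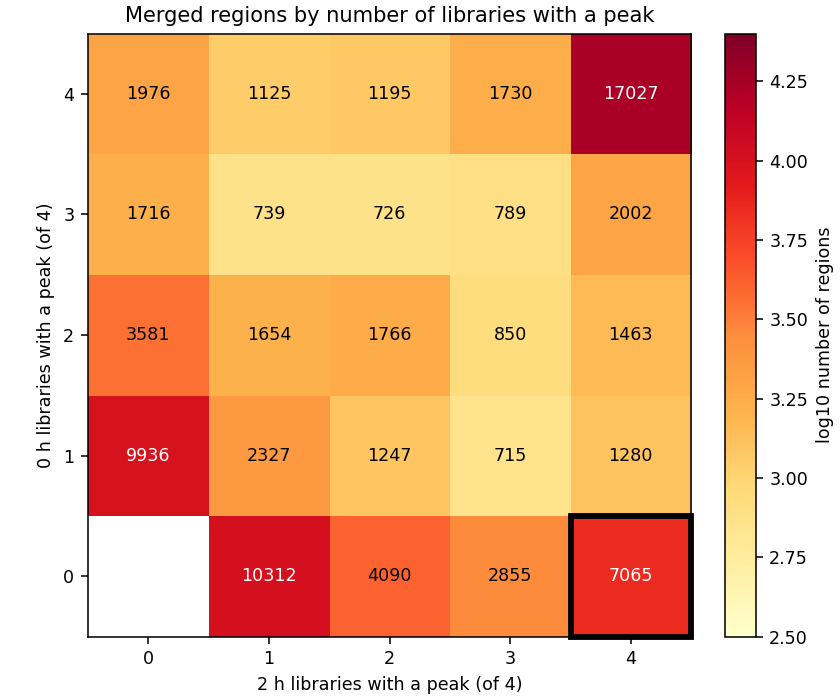
Number of merged regions by how many of the 4 libraries at 2 h (horizontal axis) and of the 4 at 0 h (vertical axis) held a peak, with colour on a log10 scale and the gained regions framed. The framed cell holds 7065 regions, the opposite corner of lost regions 1976 and the corner of retained regions 17027.

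Regions chosen on some of the libraries were looked up in the others, whose calls took no part in the choice. The bounds of the regions came from the merge of all 8 libraries, and MED1 and MED24 shared both clones. The look-ups are therefore not fully independent. Of the 9181 regions gained on the libraries of clone a alone (11.7% of all), 77.0% were also gained on those of clone b, against 15% of all regions. In clone b these regions were called in 89.7% and 90.8% of cases in its 2 h libraries, against 56.7% and 58.7% of all regions. In its 0 h libraries the shares were 5.73% and 6.08%, against 44.1% and 45.4% of all regions. Of the regions gained in clone a, 13 (0.142%) were lost in clone b, against 4.97% of all regions. In the other direction, 60.4% of the 11702 regions gained in clone b were gained in clone a, against 11.7% of all regions. Between the proteins, 62.2% of 11351 regions gained by MED1 (14.5% of all) were gained by MED24, against 13.1% of all regions, and 69.1% of 10229 regions gained by MED24 were gained by MED1. Of the 5077 regions chosen as lost in clone a, 38.9% were also lost in clone b, against 4.97% of all regions, and of the 3885 chosen in clone b 50.9% were also lost in clone a, against 6.50%.

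Most gained regions lay away from gene starts. Inside a protein-coding gene were 49.8% of them, against 43.0% of lost, 70.9% of retained and 55.3% of all regions. A further 38.6% lay outside but within 100 kb of a gene, and 11.6% lay farther away. Of the 4870 gained regions whose assigned gene has a listed start, 4.87% were within 1 kb of it, against 3.96% of lost, 53.8% of retained and 21.2% of all regions. Their median distance to the start was 27.2 kb. The median was 24.9 kb for lost regions and 15.1 kb for all regions. The share of regions gained ran from 8.17% on chromosome 11 to 10.2% on chromosome 13, and none of the 53 regions on chromosome Y was gained.

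**Figure D4:**
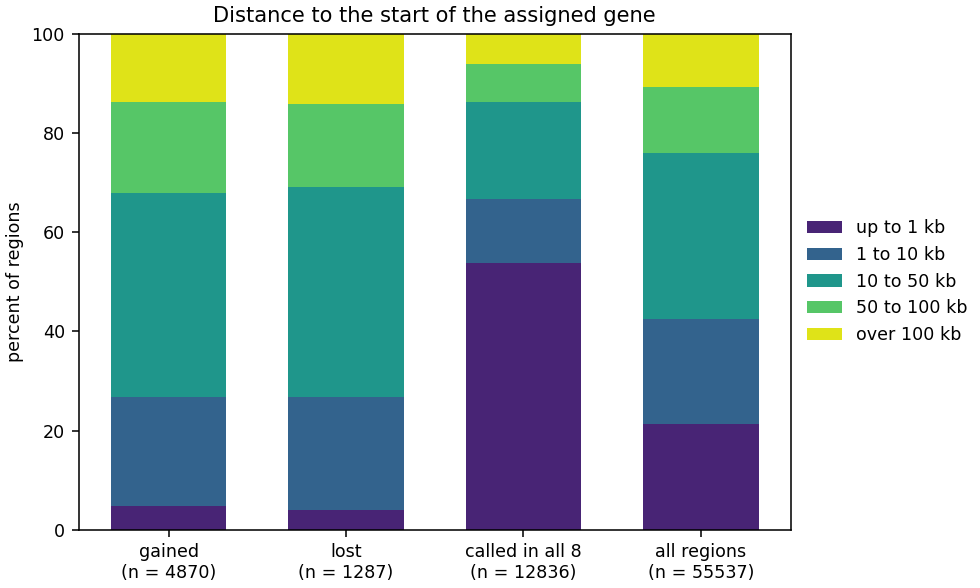
Percent of regions (vertical axis) by distance to the listed start of the assigned gene, for gained, lost, retained and all regions, with the number of regions under each bar. The share up to 1 kb is 4.87% in gained regions, 3.96% in lost, 53.8% in retained and 21.2% in all regions.

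Gained regions often had company. The nearest retained region was a median of 29.5 kb away, and 63.7% had one within 50 kb, although with 20000 peaks a list that share was 41.0%. The corresponding median and share within 50 kb were 26.5 kb and 61.9% for lost regions. From a retained region to the nearest other retained one they were 20.5 kb and 72.9%. Another gained region lay within 50 kb of 46.3% of gained regions and within 10 kb of 19.5%, while 20.1% of lost regions had another lost region within 50 kb. The classes differ in number, which sets part of such shares. When gained regions were joined over the gap usually used to stitch super-enhancers, 708 clusters with more than 1 region held 1567 of them (22.2%), and 26 clusters held at least 4. The largest were 6 regions over 31.9 kb upstream of Arntl, 6 over 13.9 kb near Smndc1, 5 over 21.8 kb at Spry4 and Arhgap26, 5 over 27.8 kb near Pofut2 and 5 over 16.4 kb in Myof.

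Joined over 50 kb, a distance chosen after the values were seen, the run with the most gained regions was at Dusp5, which encodes a nuclear phosphatase of ERK. It held 15 gained regions over 168 kb at chr19:53404982-53572526, a stretch that also reaches the neighbourhood of Smndc1, a splicing factor, and Smc3, a cohesin subunit. Of the 37 regions there, 30 and 30 were called for MED1 and 26 and 26 for MED24 at 2 h (clones a and b), against 7 and 7 for MED1 and 8 and 8 for MED24 at 0 h, and none was lost. Of all regions, 52.3% and 56.7% were called for MED1 and 50.4% and 58.7% for MED24 at 2 h. At 0 h the shares were 45.6% and 44.1% for MED1 and 49.5% and 45.4% for MED24. By the rule, the 15 gained regions count in every 2 h library and in no 0 h library. The selection thus fixed much of this contrast. The 7 gained regions assigned to Dusp5 itself (chr19:53529145-53541809) had mean percentiles from 30.95 to 98.96. The highest, at chr19:53554412-53556245 and 12.6 kb outside the gene, had 98.92 and 99.09 for MED1 and 98.88 and 98.96 for MED24. The start of Dusp5 was covered by a retained region, as the map of calls shows.

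Phlda1, a gene induced by ERK signalling that encodes a pleckstrin homology-like protein, had the next largest number in a run, with 11 gained regions over 130 kb at chr10:111507533-111637669. The 24 regions of this run were called 17 and 21 times for MED1 and 15 and 18 times for MED24 at 2 h. At 0 h they were called 3 and 3 times for MED1 and 2 and 2 times for MED24. Of all regions, 50.4% to 58.7% were called in a given 2 h library and 44.1% to 49.5% in a given 0 h library. Here too the rule fixed the calls of the 11 gained regions. The strongest of the 8 gained regions assigned to Phlda1, 34.8 kb away at chr10:111543459-111544951, had percentiles of 99.7 and 99.5 for MED1 and 99.6 and 99.6 for MED24. The 4669 bp region that overlaps the gene ranked lower, at 91.3 and 90.6 for MED1 and 83.0 and 86.5 for MED24. All 8 lay at higher coordinates than the lower end of the gene, and none on its other side.

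Arntl, the gene of the clock factor BMAL1, had the most gained regions of any gene under assignment within 100 kb, with 11 of its 35 regions gained (31.4%) and 1 lost. The 35 regions were called in 23 and 26 cases for MED1 and 24 and 27 for MED24 at 2 h, against 6 and 8 for MED1 and 10 and 10 for MED24 at 0 h. Of all regions, 50.4% to 58.7% were called in a given 2 h library and 44.1% to 49.5% in a given 0 h library. The calls of the 11 gained regions of Arntl were fixed by the rule. Of the 11, 4 were inside the annotated gene span and 7 lay upstream of it at 6.64 to 56.1 kb. Measured from the listed start, which lies within that span, 9 were upstream and 2 downstream. The strongest was intragenic, at chr7:113251809-113252662, with percentiles of 94.0 and 96.2 for MED1 and 96.8 and 97.8 for MED24. Further 50 kb runs were found at Utrn and Stx11 with 9 gained regions, at Krt8 and Krt18, the simple epithelial keratin genes, with 8, and at Pofut2 and Col18a1 with 7.

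**Figure D5:**
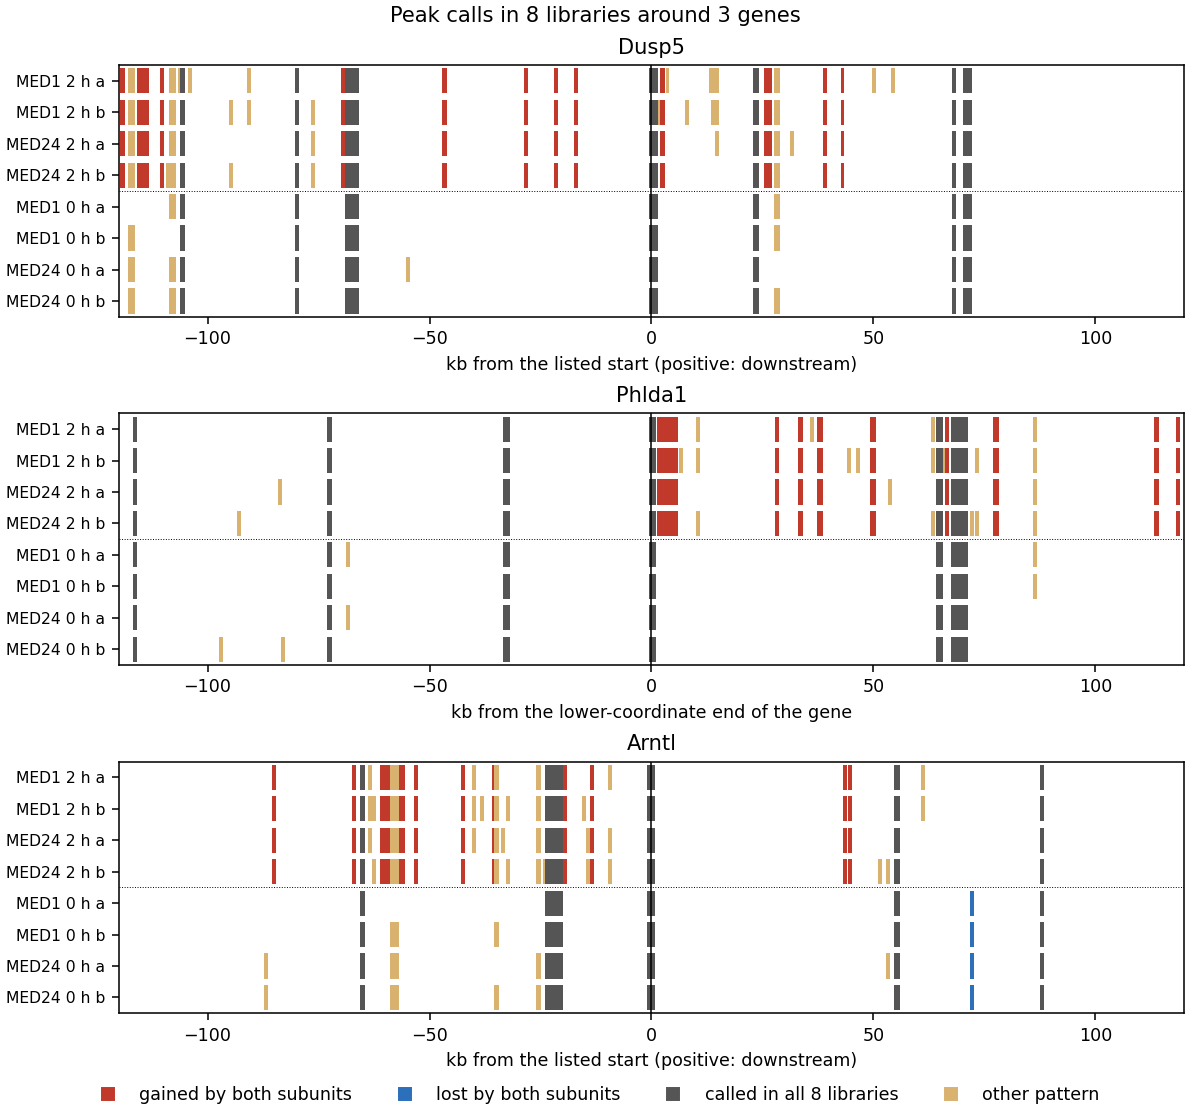
Peak calls in the 4 libraries at 2 h (upper rows) and the 4 at 0 h (lower rows) around Dusp5, Phlda1 and Arntl; the horizontal axis reaches 120 kb to either side of the listed start (positive downstream) or, for Phlda1, of the lower-coordinate end of the gene, and regions under 0.9 kb are drawn 0.9 kb wide. Gained regions (red) number 13 at Dusp5, 10 at Phlda1 and 11 at Arntl, and at each gene a retained region (grey) covers the zero point.

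Regions were next assigned to genes. Of all 70887 assigned regions 8.81% were gained, and 4244 of the 16660 genes with a region (25.5%) had at least 1 gained one. Most had a single one (2987 genes), 162 had at least 4, and 119 of those had no lost region. Over all 16660 genes with a region, 1425 had a lost one. Genes with at least 4 gained regions thus had a lost one more often than genes as a whole. The number of regions per gene was not adjusted for. Of genes with a gained region, 69.3% also had a retained one, and the share over all genes is not given here. After Arntl the highest numbers were 9 each for Tenm4, a teneurin adhesion gene, and Utrn, the dystrophin relative utrophin, and 8 each for Phlda1, Prkce, a protein kinase C, and Tcf7l2, a transcription factor of Wnt signalling. Dusp5, Smndc1, Map4k3, Med13l, Camta1 and Pitpnc1 had 7 each. This order depends on the distance allowed. With assignment within 20 kb, Utrn had 9, Prkce 8, Tenm4, Camta1 and Pitpnc1 7 each and Arntl and Tcf7l2 6 each, while Dusp5 and Smndc1 had 3, Map4k3 and Med13l 2 and Phlda1 1. Among genes with at least 10 regions the largest shares gained were 46.2% for Arap3, a GTPase-activating protein, 42.9% for Pfkfb3, a regulator of glycolysis, and 41.7% each for Gipc2, Runx2 and Thsd4. Atp8a1, Babam2 and Gsn followed with 40% each, and within 20 kb Arap3 and Pfkfb3 kept 2 gained regions of 6 and Gipc2 3 of 5. None of the 10 regions of Gsn held a peak in any 0 h library, which for its 4 gained ones follows from the rule. Regions with no 0 h call were common in the series. Those called in 1, 2, 3 and 4 libraries at 2 h made up 13.2%, 5.23%, 3.65% and 9.04% of all regions.

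Among 23 gene lists the ERK feedback genes had the largest share gained under assignment within 100 kb. Of their 214 regions 38 were gained (17.8%, against 8.81% of all assigned regions) and 2 lost. A gained region was present at 15 of the 18 genes, against 25.5% of all genes with a region. These 18 genes held 214 regions, while the 16660 genes with a region held 70887, so regions per gene were more numerous here. A gene with more regions is likelier to hold a gained one. Beside Phlda1 with 8 and Dusp5 with 7, Spry4 had 4, Etv4, an ETS factor, and Spred2, an inhibitor of RAF activation, had 3 each, and Dusp1, Spry1 and Errfi1 had 2 each. In Etv4 the strongest was at chr11:101776628-101777570, with percentiles of 97.7 and 97.7 for MED1 and 98.6 and 98.2 for MED24. Dusp6, Spred1 and Spred3 had none, and Etv5 had 1 gained and 2 lost. Without Phlda1 and Dusp5 the share was 13.3%, and with genes assigned only within 20 kb it was 13.0%, against 8.34% of all regions assigned in that way, and Wnt targets (17.0%), primitive endoderm (15.5%), the ETS family (15.2%), circadian (14.1%) and trophectoderm genes (13.5%) stood above it. With 20000 peaks a list it was 21.6%, with fibroblast genes at 22.2%.

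Immediate early genes had 28 of 190 regions gained (14.7%) and 4 lost. Klf6, a zinc finger factor, had 5, Jun and Ier5 had 3 each, and Egr2, Ier3, Myc, Klf10, Ccn1 and Ccn2 had 2 each. The 3 at Jun, an AP-1 subunit, were 22.6 to 53.0 kb from the gene, with mean percentiles of 77.6, 68.7 and 91.8. Fos had 1 gained and 3 lost, and Egr1, Junb, Ier2 and Zfp36 had none. Within 20 kb of these genes the share was 7.38%, below that of all genes. The AP-1 family as a whole had 9 of 72 regions gained, of which Jun and Mafk held 6. The ETS family had 23 of 148 (15.5%), with 5 at Etv6, but 9.21% with 20000 peaks a list, where all genes had 10.0%. The MAP kinase cascade, at 8.33%, was near the share of all genes.

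Other lists with larger shares were often carried by few genes. Wnt targets had 20 of 121 gained (16.5%), with 8 at Tcf7l2 and 4 at Tcf7, and 9.30% without these 2. Circadian genes had 19 of 123 (15.4%), with 11 at Arntl and 3 at Npas2, and 6.58% without them. Genes of actin and adhesion had 29 of 224 (12.9%), led by Ahnak with 6 and Vcl, vinculin, with 3, and 10.8% without these. Genes of the Hippo pathway and TEAD factors had 17 of 133 (12.8%). The shares were 11.7% for primitive endoderm, 11.4% for trophectoderm, 11.1% for LIF and STAT3, 11.1% for Mediator subunits, 10% for fibroblast, 10.1% for housekeeping and 9.84% for estrogen receptor target genes. Of the Mediator genes, Med13l had 7 of the 11, and Med1 and Med24 had none. For 4 of these lists the side of the share of all genes (8.34% within 20 kb, 10.0% with 20000 peaks) turned with the setting. The LIF and STAT3 list had 4.62% within 20 kb and 7.69% with 20000 peaks, and the Mediator list 5.63% and 3.64%. Within 20 kb the housekeeping and estrogen receptor target lists had 7.55% each.

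Below the share of all genes stood several developmental lists. Naive pluripotency genes had 14 of 244 regions gained (5.74%) and 16 lost (6.56%), against 2.34% of all assigned regions lost. Nanog, Klf4 and Tfcp2l1 had no gained region and 1, 2 and 2 lost ones, Tbx3 had 3 gained and 4 lost, and Esrrb had 1 gained and 3 lost. Zfp42 had 4 gained and none lost, all over 20 kb away, Klf5 had 2 gained and Dppa3 1, and neither had a lost one. Genes of FGF ligands and receptors had 2 of 68 gained (2.94%, 1 each at Fgfr1 and Fgfr4) and 7 lost. Mesendoderm genes had 1 of 52 gained (1.92%), at Lefty1. The shares were 5.95% for neural, 6.41% for core pluripotency, 7.04% for formative epiblast and 7.94% for BMP and TGF-beta genes. The last 2 turned with the setting, to 9 of 100 regions for formative epiblast within 20 kb and to 16.4% for BMP and TGF-beta with 20000 peaks.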

How the data were processed

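Peak lists of 8 ChIP libraries were analysed, 2 clones in each of 4 groups that follow the titles of the samples. The 4 inputs were not used here. According to the submitters' processing notes, the tools were Bowtie2, MACS2 and bedtools and the build was mm10. Tool versions and caller settings were not stated in the material at hand, and each library has its own list. The MED1 lists hold, as deposited by the authors, a score, a fold enrichment (a ratio), −log10 p, −log10 q and a summit. The MED24 lists hold a score deposited by the authors, and their peak names carry FLAG and a folder name, EP300, that differs from the labels, which were followed. These values were used only to describe, rank or filter peaks within a list.

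Peaks of the autosomes and both sex chromosomes were merged, with the same count of regions in bedtools 2.31.1, and the code (Python 3.11.15, pandas 2.3.3) was tested on planted data. Regions were assigned to the nearest protein-coding RefSeq gene within 100 kb (90.7% were), and 17491 of 21883 genes have a listed start. All members, lists, motifs and the rule for named items were chosen with earlier results of these data known. That rule took the 10 regions of highest and 3 of lowest mean percentile, the 5 widest, the 5 largest clusters, the 12 genes with most gained regions, the 8 with the highest share, up to 4 genes of each list and up to 8 promoters; genes named beyond it were chosen after their values were seen, and 1 item it names is not reported here. No test was made between classes, since regions are not replicates. Clones were paired by their letter, per the labels.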

Additional observations from a re-analysis of the deposited data

How the results depend on the processing

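The number of gained regions, 7065, was 3893 with 20000 and 2395 with 10000 top peaks a list, and 7312 to 11903 when 1 library or 1 clone was left out, the highest without clone a. As a replicate block, with the rule applied within each clone and averaged, it was 10667.5 with a log2 ratio of gained to lost of 1.20. That ratio, 1.84, was 0.87 with 20000 and 0.87 with 10000 peaks and 0.83 to 1.92 with libraries or clones left out, the lowest without clone b. The percent inside a gene was 49.3 with scores of at least 50, 48.6 with 20000 peaks and 49.6 to 50.2 without single libraries. The percent within 50 kb of a retained region was 60.2, 41.0 and 63.9 to 65.3 under these settings. The share carried from clone a to clone b was 76.1% with 20000 peaks and 75.8% with centre windows, and that from MED1 to MED24 was 63.5% with scores of at least 50 and 66.8% with 20000 peaks. The percent of gained promoter windows with AP-1 letters was 27.1 with 20000 peaks, 22.1 with 10000, 21.9 with scores of at least 100 and 25.5 to 33.3 without single libraries, alternatives added after the data were seen. For named genes 191 of the counts stayed within 1.5 times and 91 did not. Of 23 lists, 21 were on the same side of the share of all genes with scores of at least 50, 19 with 20000 peaks and 15 with assignment within 20 kb. Peak lists hold nothing below the calling threshold, and depth is unknown. The cause of these shifts was not tested.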

Other observations

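MicroRNA genes near gained regions were looked up after the main values were seen. Of 1005 RefSeq hairpins, 47 (4.68%) lay within 5 kb of a gained region, against 2.09% for lost and 24.3% for retained regions. The classes differ in number (7065, 1976 and 17027 regions), which these shares follow, and relative to its number the lost class, with 21 hairpins, had more of them nearby than the gained class. The hairpin of Mir34b, a microRNA known as a p53 target, overlapped a gained region with a mean percentile of 38.1, and Mir34c lay 0.122 kb from it. Hairpins of the miR-29 family, whose 3p arms share a seed, lay near gained regions at 2 places, with Mir29b-2 and Mir29c 2.78 and 3.28 kb from a region of mean percentile 27.8, and Mir29a and Mir29b-1 3.89 and 3.55 kb from one of 50.6.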
